A study of Caenorhabditis elegans with 2 samples.

Results

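The Caenorhabditis elegans genes of translation initiation and elongation were examined for PHA-4 binding at their promoters in L3 larvae. The set holds the 40 protein-coding genes, of 19973 in the Ensembl annotation of WBcel235, whose symbols begin with eif-, iff-, ife-, ifg-, ifet- or eef-. By name 32 of them encode initiation factors, and 8 encode elongation factors when the eIF5A genes iff-1 and iff-2 are counted with eef-1 and eef-2. A gene is called bound where the summit of a deposited optimal peak lay within 1000 bp upstream or 200 bp downstream of any annotated 5' end. By that rule 31 of the 40 genes, or 77.5%, were bound, against 24.0% of all protein-coding genes, with all 8 elongation genes among them. Where each summit was given only to the nearest 5' end within 2000 bp, 21 were called (15 initiation and 6 elongation), against 23.2%. The highest peaks in the windows stood at iff-2, eef-1A.1, ifet-1 and eef-1G, of which those at eef-1A.1 and ifet-1 lay nearer to the 5' end of a neighbour.

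The data are PHA-4 ChIP-seq peak lists from whole L3 larvae of strain OP37, genotype unc-119(ed3) III; wgIs37, in which wgIs37 is an insertion that targets pha-4. Both sexes were pooled, and the series has 2 biological replicates of this 1 group, with no second strain, stage or treatment. The description of the samples names an eGFP fusion of PHA-4 as the target and the antibody entry names pha-4, so which part of the protein was precipitated is not given. Both replicate lists were called against the same control file, and the number of reads behind them is unknown here. All values below are from whole animals, so the cells that carry a peak cannot be told apart. RNA was not measured, so a preference for these genes and one for any strongly active promoter cannot be told apart either.

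PHA-4 is the FoxA transcription factor of the nematode, known for giving cells of the pharynx their identity, and it is active in the intestine too. Translation begins when eIF2 brings the initiator tRNA to the small ribosomal subunit, which eIF3 holds ready and which the cap-binding eIF4 proteins join to the mRNA. During elongation eEF1A delivers each aminoacyl-tRNA, the eEF1B and eEF1G proteins help to recharge eEF1A with GTP, eEF2 moves the ribosome along, and eIF5A, named for initiation, helps the ribosome through difficult peptide bonds.

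The sequences under some of these summits are shown first, because the results turn on how high and where these peaks stood. Each is the 101 bases centred on the summit of the highest promoter peak, from the RefSeq genome WBcel235 (ce11), on the strand of the gene and written 5' to 3'. The first 4 are the windows of the elongation genes iff-2, eef-1A.1 and eef-1A.2 and of the initiation gene ifet-1, which had some of the highest peaks of the set and lay outside annotated exons. The other 4 are iff-1, the second eIF5A gene, whose peak was far lower than that of iff-2, eif-3.B and eif-2A, which hold a FoxA core (that is TGTTTAC, or in place of it TATTTAC, or as a further form TGTTTGC, or else the form TATTTGC, on either strand), and ife-4, which holds a run of the GA repeat (GAGAGAG on either strand). Capitals mark those motifs. The windows lie at chrII:8561400-8561500 (iff-2, minus strand), chrIII:6972040-6972140 (eef-1A.1, minus), chrX:7823248-7823348 (eef-1A.2, plus), chrIII:4475610-4475710 (ifet-1, minus), chrIII:9747302-9747402 (iff-1, minus), chrII:14795060-14795160 (eif-3.B, plus), chrII:10416471-10416571 (eif-2A, plus) and chrX:1103843-1103943 (ife-4, plus).
iff-2: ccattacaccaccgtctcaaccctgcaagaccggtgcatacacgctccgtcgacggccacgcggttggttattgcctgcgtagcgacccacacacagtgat
eef-1A.1: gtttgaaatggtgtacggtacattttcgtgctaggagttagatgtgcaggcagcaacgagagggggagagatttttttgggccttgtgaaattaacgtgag
eef-1A.2: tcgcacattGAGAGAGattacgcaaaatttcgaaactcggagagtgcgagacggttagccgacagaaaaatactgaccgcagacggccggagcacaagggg
ifet-1: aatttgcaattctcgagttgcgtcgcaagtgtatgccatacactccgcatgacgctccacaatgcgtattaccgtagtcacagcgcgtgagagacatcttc
iff-1: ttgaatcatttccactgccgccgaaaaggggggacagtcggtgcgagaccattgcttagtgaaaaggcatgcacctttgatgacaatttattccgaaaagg
eif-3.B: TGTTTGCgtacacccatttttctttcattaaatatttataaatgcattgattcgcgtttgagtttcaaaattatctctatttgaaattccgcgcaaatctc
eif-2A: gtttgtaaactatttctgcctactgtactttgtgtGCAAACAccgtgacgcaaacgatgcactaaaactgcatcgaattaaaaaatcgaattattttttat
ife-4: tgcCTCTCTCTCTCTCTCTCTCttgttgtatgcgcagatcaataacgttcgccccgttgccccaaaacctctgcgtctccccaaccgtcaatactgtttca

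PHA-4 peaks stood at most translation factor genes, and the higher ones at elongation genes. The 31 bound genes are 77.5% of the set (95% Wilson interval 62.5 to 87.7, for counting of genes only), against 24.0% of all protein-coding genes, 4796 in number. Of the initiation genes 23 of 32 were bound, or 71.9% (interval 54.6 to 84.4), and of the elongation genes 8 of 8 (67.6 to 100). Peak height is the signal the authors deposited with the optimal list, on a scale that is not stated, so heights are compared within that list. The median height of the highest promoter peak was 148 over the bound translation factor genes, 133 over the initiation genes and 344 over the elongation genes, against 104 over all bound genes. Heights ran from 58.5 at eif-2D to 569.5 at iff-2.

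Many of these genes were at the upper end of the height scale. Of the 31 bound genes 25 stood above the median of all bound genes, and 15, or 48.4%, stood above the third quartile of 162. Above the ninth decile of 231 stood 11, or 35.5%, against 10% of all bound genes. These 11 were 6 of the 8 elongation genes and 5 of the 23 bound initiation genes, namely ifet-1, eif-3.C, eif-3.B, eif-3.E and ife-2. Among the 11, the summits of eef-1A.1 and ifet-1 lay nearer to the 5' end of a divergent neighbour. With 1 group and lists that share genes with their neighbours, these shares are given as descriptions, with no test.

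**Figure D1:**
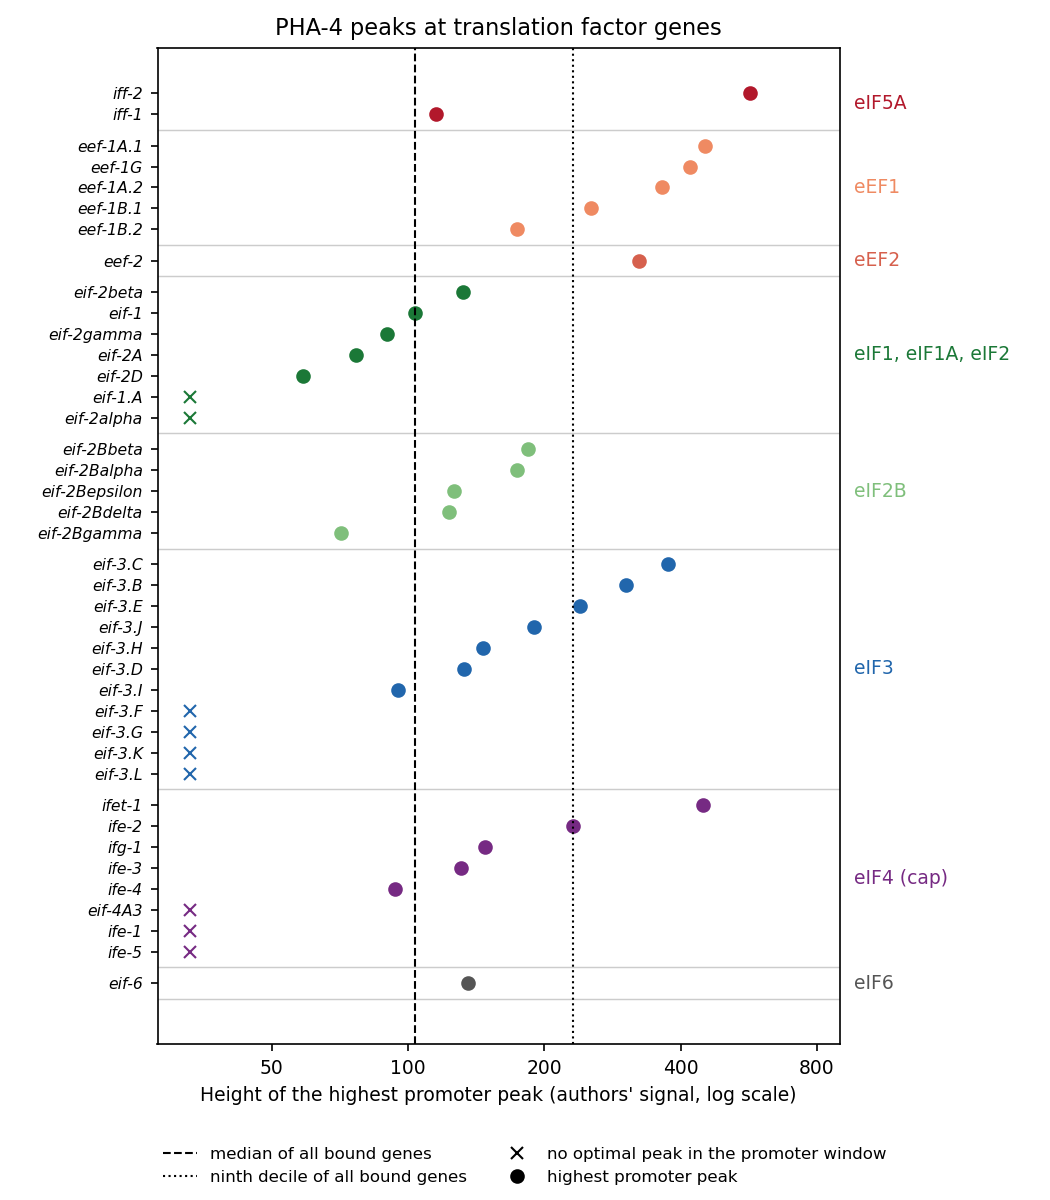
Height of the highest promoter peak of each of the 40 genes (horizontal log axis, the authors' signal), grouped and coloured by the factor they encode. Crosses at the left edge are the 9 genes with no optimal peak in the promoter window and have no height; the dashed and dotted lines are the median (104) and ninth decile (231) of all bound genes, and 6 of the 8 elongation genes lie right of the dotted line.

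The count of bound genes was taken in 3 other ways. Among the 3923 highest optimal peaks, 28 of the 40 genes still had one (20 initiation and 8 elongation), against 15.1% of all genes. When the 7847 top regions of replicate 1 and of replicate 2 were taken, as many as there are optimal peaks, 30 of the 40 genes had a region in both (22 and 8), against 20.7%. Where each summit was given only to the gene with the nearest 5' end within 2000 bp, 21 of the 40 were called (15 and 6), against 23.2%. The 10 genes lost under that last rule were eef-1A.1, iff-1, ifet-1, ifg-1, eif-2Bbeta, eif-2Bepsilon, eif-3.D, eif-3.H, eif-6 and eif-1. Each of their summits lay in the window of a divergent neighbour too, and nearer to that neighbour's 5' end.

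The eIF5A genes stood far apart from each other. The iff-2 gene encodes the somatic form and iff-1 the form known from the germline. The iff-2 peak (chromosome II, 8561306 to 8561594, intergenic) ranked 13 of the 7847 optimal peaks, with its summit 83 bp upstream of the 5' end. Its signal was 259 in replicate 1 and 316 in replicate 2, ranks 5 and 26 of the 30000 regions in each list. The replicate lists differ in scale, with medians over the optimal peaks of 28.4 and 57.6, so each signal was also divided by that median and is then called relative signal. Relative signal at iff-2 was 9.10 and 5.50, a mean of 7.30 ± 2.55 (SD, n = 2), the largest SD in the set, at the largest mean. As a log2 ratio of replicate 2 to replicate 1 the difference was -0.73, smaller in size than the 1.15 at eif-2Bepsilon. The iff-1 peak (chromosome III, 9747182 to 9747521, intergenic) had a height of 115 and ranked 2471, with relative signals of 1.46 and 1.30 (1.38 ± 0.12, SD, n = 2). In each replicate iff-2 was therefore several times higher than iff-1, and the pair did not overlap. The iff-1 summit lay 159 bp upstream of that gene and 120 bp from the 5' end of cdk-1, the cell cycle kinase gene that shares the window, while the iff-2 window was shared with F54C9.14, whose 5' end lay farther off than that of iff-2.

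All 5 genes of the eEF1 complex were bound, against 24.0% of all protein-coding genes, at heights from 174 to 452. The eef-1A.1 and eef-1A.2 genes encode eEF1A, the GTPase that carries aminoacyl-tRNA to the ribosome. The eef-1A.1 peak (chromosome III, 6971941 to 6972245, intergenic) had a height of 452 and signals of 134 and 316 in replicates 1 and 2, which are relative signals of 4.73 and 5.48 (5.11 ± 0.53, SD, n = 2). The eef-1A.2 peak (chromosome X, 7823107 to 7823481, intergenic) had a height of 365 and signals of 118 and 249, relative signals of 4.15 and 4.32 (4.24 ± 0.12, SD, n = 2). Both eEF1A genes thus had peaks among the 100 highest of the list, at ranks 32 and 91, and eef-1A.1 was the higher in each replicate. The eef-1A.2 summit lay in the window of no other protein-coding gene. By contrast, the eef-1A.1 summit lay 378 bp upstream of its own 5' end and 163 bp from that of rfc-4. The rfc-4 gene, on the other strand, encodes a replication factor C subunit.

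The nucleotide exchange subunits of eEF1 ranked below eEF1A, except eef-1G. The eef-1G peak (chromosome V, 10965558 to 10965818) lay 33 bp upstream of the gene, in the 179 bp that separate it from ctf-4, and had a height of 421, rank 45. Its signals were 117 and 310.5, relative signals of 4.11 and 5.39 (4.75 ± 0.91, SD, n = 2). The eef-1B.1 gene had 2 promoter peaks, one of height 254 at 2 bp upstream of its 5' end and one of 120.3 at 757 bp upstream. The higher of them, shared with the aconitase gene aco-2, had signals of 94.5 and 159, relative signals of 3.33 and 2.76 (3.05 ± 0.40, SD, n = 2). The eef-1B.2 peak, at 154 bp upstream on chromosome IV, had a height of 174, signals of 60.1 and 112 and relative signals of 2.11 and 1.95 (2.03 ± 0.11, SD, n = 2). In both replicates the order was eef-1G, eef-1B.1, eef-1B.2, and no 2 of these genes had overlapping relative signals.

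The eef-2 gene, which encodes the translocase eEF2, had a peak of height 323, rank 147 (chromosome I, 9163395 to 9163674). Its summit lay 5 bp upstream of the 5' end, in the 264 bp shared with clsp-1. Signals of 119 and 203 gave relative signals of 4.20 and 3.53 (3.87 ± 0.47, SD, n = 2). Over the 8 elongation genes the mean relative signals fell in the order iff-2, eef-1A.1, eef-1G, eef-1A.2, eef-2, eef-1B.1, eef-1B.2 and iff-1. The replicate values of iff-2, from 5.50 to 9.10, and of eef-1A.1, from 4.73 to 5.48, did not overlap, but only by a narrow margin. From eef-1A.1 down to eef-2 each gene overlapped the next in this order, whereas eef-1B.1, eef-1B.2 and iff-1 each lay below the gene before with no overlap.

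**Figure D2:**
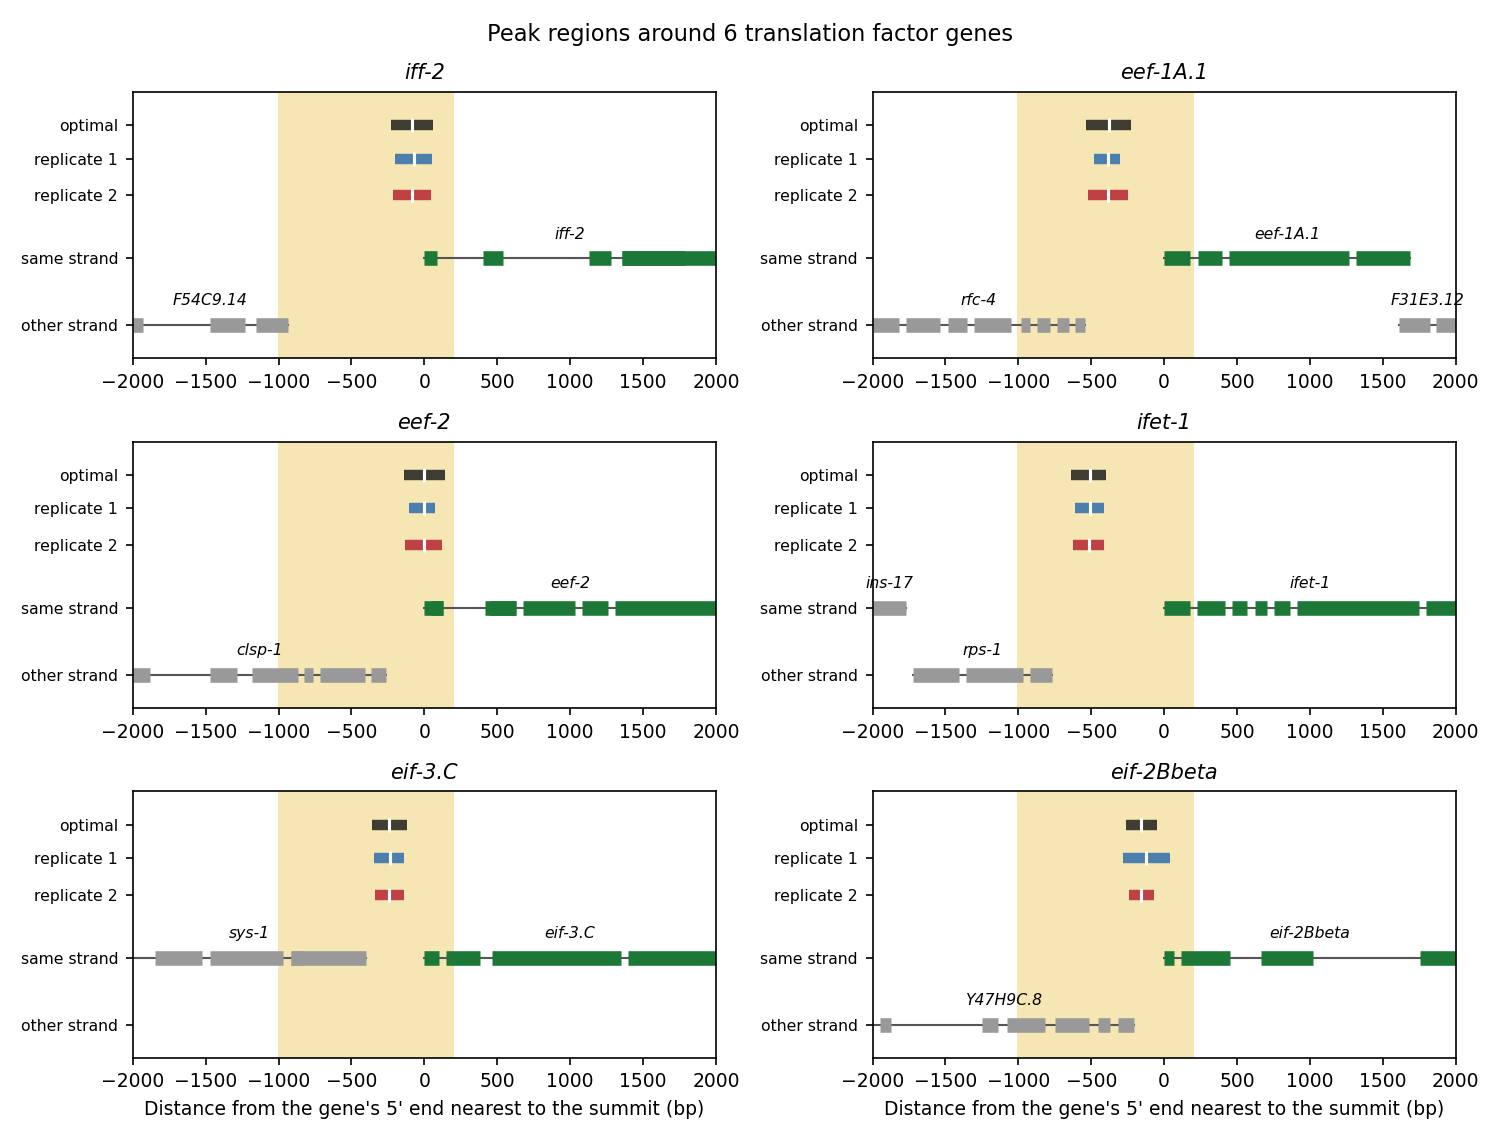
Peak regions within 2000 bp of the 5' end of 6 genes (horizontal axis, bp from the 5' end nearest to the summit), with the optimal, replicate 1 and replicate 2 regions as bars whose white ticks are the summits. Green boxes are exons of the named gene, grey boxes those of neighbours, and the shaded band is the promoter window; the replicate summits lie at nearly the same place as the optimal one, and the summits at iff-2, eef-1A.1, eef-2, ifet-1 and eif-2Bbeta lie between 2 divergent genes.

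The eIF3 complex is the scaffold on which the small ribosomal subunit meets the mRNA. Of the 11 subunit genes whose symbols begin with eif-3, 7 were bound, against 24.0% of all protein-coding genes. Any subunit gene named otherwise is not counted. The median height was 190.3 over the 7, in a range from 95.0 to 376. The eif-3.C peak (chromosome I, 9979781 to 9980024, intergenic), 239 bp upstream, had a height of 376, rank 78, and relative signals of 4.75 and 4.10 (4.42 ± 0.45, SD, n = 2). The eif-3.B peak (chromosome II, 14794950 to 14795287, intergenic), 294 bp upstream, had a height of 303, rank 189, and relative signals of 3.47 and 3.56 (3.51 ± 0.06, SD, n = 2). These 2 genes encode large core subunits and neither shared its peak with another gene. The eif-3.E peak stood at 239.8, with relative signals of 2.51 and 2.92, in the window it shares with B0511.17. Lower peaks were found at eif-3.J (190.3), eif-3.H (146), eif-3.D (133) and eif-3.I (95.0).

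Some of the eIF3 peaks were less clearly the gene's own. The eif-3.J summit lay 937 bp upstream, inside an exon of the same-strand neighbour slc-25A46, a mitochondrial carrier-family gene that held a separate promoter peak of 46.0. The summits of eif-3.D and eif-3.H lay 245 and 257 bp upstream of those genes but 69 bp from R08D7.4 and 113 bp from C41D11.3, and the eif-3.I window also belongs to abtm-1. At eif-3.D the replicates differed: replicate 1 had a region there with a relative signal of 1.29, and replicate 2 had none, its nearest region being 1671 bp away. Only 69 of the 7847 optimal peaks, or 0.879%, lacked a region in the replicate 2 list.

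The eIF2 and eIF1 genes act in selection of the start codon. Of 7 genes 5 were bound, against 24.0% of all protein-coding genes. Heights of the 5 ran from 58.5 to 133 with a median of 90.0, below the median of all bound genes. The eif-2beta gene, for the β subunit of eIF2, led with 133 at a summit in its own intron, 208 bp upstream of the nearest of its 2 annotated 5' ends, and relative signals of 1.37 and 1.62. A further peak of 45.8 stood in its window. The eif-2gamma gene, for the subunit that binds GTP and the initiator tRNA, had 90.0, with relative signals of 0.62 and 1.23, and eif-1, which guards against wrong start codons, 104, with 1.22 and 1.24. The alternative tRNA carriers eif-2A and eif-2D had 76.8 and 58.5, with relative signals of 0.60 and 1.08 and of 0.72 and 0.65. Relative signal was below 1, the middle of the optimal list, in at least 1 replicate at eif-2gamma, eif-2A and eif-2D, and above it in both at eif-2beta and eif-1. The eif-1 summit lay 408 bp upstream of that gene and 10 bp from a 5' end of vps-24, and it also fell in the window of pigb-1.

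All 5 subunit genes of eIF2B were bound, against 24.0% of all protein-coding genes. The eIF2B complex exchanges GDP for GTP on eIF2 and is the step blocked when eIF2α is phosphorylated under stress. Heights were 184 at eif-2Bbeta, 174 at eif-2Balpha, 126 at eif-2Bepsilon, 123 at eif-2Bdelta and 71.2 at eif-2Bgamma. Relative signal in replicates 1 and 2 was 1.39 and 2.53 at eif-2Bbeta, 1.38 and 2.31 at eif-2Balpha, 0.80 and 1.78 at eif-2Bepsilon, 1.21 and 1.51 at eif-2Bdelta and 1.17 and 0.67 at eif-2Bgamma. The first 4 genes were higher in replicate 2 and eif-2Bgamma in replicate 1, and the replicate ranges of the first 4 overlapped one another. The eif-2Bgamma summit lay 966 bp upstream of the gene, inside an intron of the same-strand neighbour C15F1.5. The eif-2Bepsilon summit was 31 bp from piga-1 and the eif-2Bbeta summit 46 bp from Y47H9C.8, each closer than to the eIF2B gene itself.

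Of the 8 genes named for eIF4 and its partners 5 were bound, against 24.0% of all protein-coding genes. These were 5 of the 7 genes for cap-binding proteins and their partners and not eif-4A3. Any eIF4 gene named otherwise, such as one for a helicase of initiation, is not counted. The ifet-1 gene encodes the eIF4E transporter, a partner of eIF4E that acts as a translational repressor in the germline. Its peak (chromosome III, 4475550 to 4475787, intergenic) had a height of 448, rank 34, the highest of any initiation gene, with signals of 176 and 271 and relative signals of 6.19 and 4.71 (5.45 ± 1.05, SD, n = 2). It lay 510 bp upstream of ifet-1 and 258 bp from rps-1, a divergent ribosomal protein gene, so it cannot be assigned to ifet-1 alone. Among the 5 eIF4E genes, ife-2 and ife-4, expressed in somatic tissue, had heights of 232 and 93.7, and ife-3, one of the germline forms, had 131, while ife-1 and ife-5, the other germline forms, had no optimal peak. Relative signal was 1.97 and 3.04 at ife-2 (2.50 ± 0.75, SD, n = 2), 1.67 and 1.44 at ife-3 (1.55 ± 0.16) and 1.49 and 0.93 at ife-4 (1.21 ± 0.39). The 3 bound eIF4E genes shared their peaks with no other gene, and ife-2 was the highest of them in both replicates. The eIF4G gene ifg-1, which bridges the cap and the small subunit, had a peak of 148 whose summit was 635 bp upstream, in an exon of M110.3, and a further peak of 43.9 in one of its own exons, 4513 bp downstream of the nearest of its annotated 5' ends. The eif-6 gene, whose product keeps the ribosomal subunits apart, had a peak of 136 with relative signals of 1.49 and 1.62, in a window shared with the proteasome gene pbs-2.

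The 9 genes with no optimal peak in their windows were all initiation genes, and they fell into groups of different kinds. No summit of either replicate's 30000 regions lay in the windows of ife-1, ife-5, eif-3.K and eif-3.L, though the edge of an optimal region reached into that of ife-5. The nearest optimal summits to those genes were at 16209, -1147, -1487 and 22024 bp from a 5' end (negative upstream). At eif-4A3, the helicase of the exon junction complex, at eif-3.F and at eif-2alpha, whose product carries the stress-regulated phosphorylation site of eIF2, both replicates had weak regions. Their relative signals in replicates 1 and 2 were 0.53 and 0.28, 0.27 and 0.40, and 0.21 and 0.22. All 6 of these values were below 1, the middle of the optimal list. At eif-1.A, the partner of eif-1 in scanning, and at eif-3.G a region was found in replicate 1 alone, with relative signals of 1.40 and 0.91. The nearest replicate 2 regions were 17659 and 6596 bp away. The eif-1.A region, rank 2546 in replicate 1, was higher there than at several genes that are called bound.

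Among the bound genes the replicates gave similar relative signals. In 30 of the 31 a region of each replicate lay within 200 bp of the optimal summit, the exception being eif-3.D. The same held at 4224 of the 4311 promoter peaks. Because the optimal list was made from both replicate lists, such matches follow from how its peaks were chosen. Relative signal was higher in replicate 2 at 18 of the 30, and the log2 ratio of replicate 2 to replicate 1 had a median of 0.06 and ran from -0.81 at eif-2Bgamma to 1.15 at eif-2Bepsilon. Over all promoter peaks 52.9% were higher in replicate 2, and the 5th to 95th percentile of that log2 ratio was -0.93 to 1.23, so each of the 30 genes lay within the spread of promoter peaks in general. The median coefficient of variation between replicates was 12.6% over these genes, whose peaks were mostly higher, and 18.3% over all promoter peaks, not compared at like height. A small difference in relative signal between 2 of these genes, such as that between eif-3.H and ifg-1, is within this replicate spread.

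**Figure D3:**
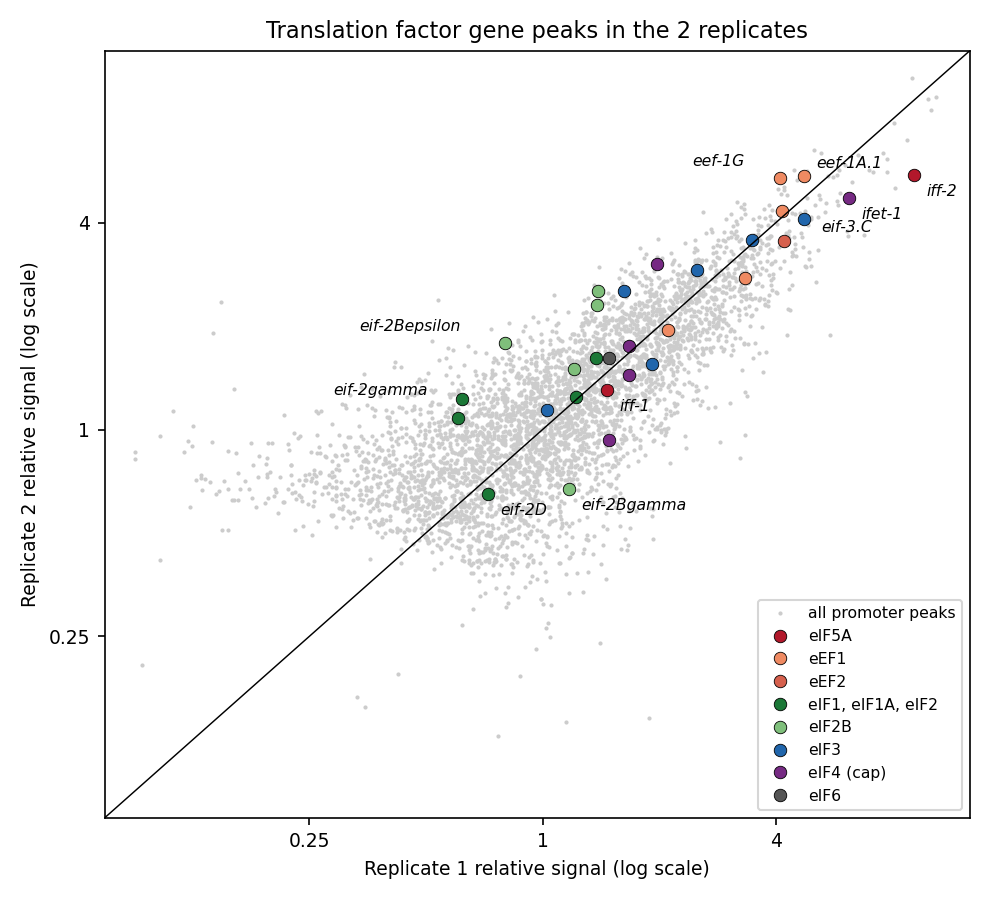
Relative signal in replicate 1 against replicate 2 (log axes; each replicate scaled to the middle of the optimal list) for the 30 bound genes with a region in both lists, coloured by factor, over all promoter peaks in grey. The line marks equal values; of the coloured points iff-2 lies farthest right, at 9.10, and 4 of the 5 eIF2B genes lie above the line.

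Every one of the 31 summits lay upstream of the gene's nearest 5' end, as did 4474 of the 4796 over all bound genes. The window reaches 1000 bp upstream and only 200 bp downstream, so most summits in it lie upstream by rule. For the 31 genes distances ran from -966 to -2 bp with a median of -215, close to the -219 of all bound genes. Of them 27, or 87.1%, lay no more than 500 bp upstream, against 73% of all bound genes. Downstream summits, which occur only among the other bound genes, are not in that 73%, so the 2 shares are not fully alike. The 4 farther out were eif-2Bgamma, eif-3.J, ifg-1 and ifet-1. Many C. elegans 5' ends are annotated at the site of trans-splicing rather than at the start of transcription, so these distances are to the annotated ends. Heights varied widely at like distances: the 4 genes within 33 bp, eef-1B.1, eef-2, eif-2Bdelta and eef-1G, had 254, 323, 123 and 421, and the 5 from 356 to 510 bp away, eef-1A.2, eef-1A.1, eif-1, ife-3 and ifet-1, had 365, 452, 104, 131 and 448.

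**Figure D4:**
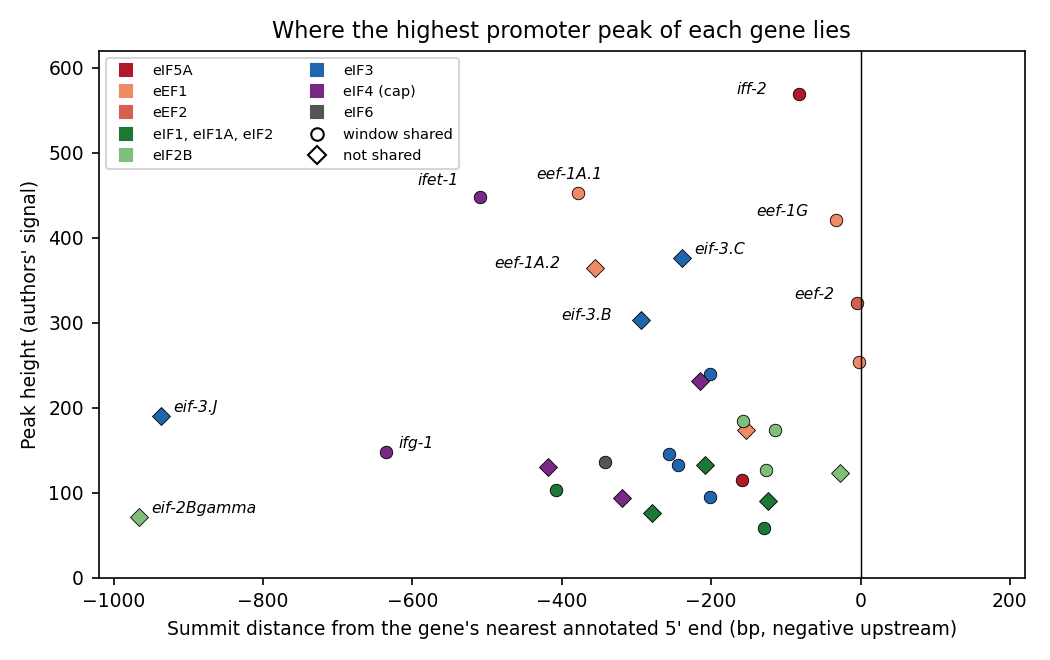
Summit distance from the gene's nearest annotated 5' end (horizontal axis, bp, negative upstream) against peak height (the authors' signal) for the 31 bound genes. Circles are genes whose peak also lies in the promoter window of another protein-coding gene and diamonds genes with an unshared peak; all points lie at or left of -2 bp, and both kinds occur among the high peaks.

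Many of these genes shared their upstream region with another gene. A divergent neighbour began within 1000 bp of 21 of the 40, or 52.5%, against 21.3% of all protein-coding genes. Of the 31 bound genes 18, or 58.1%, shared their peak with the window of another gene, against 40.2% of all bound genes, and 21, or 67.7%, were the gene nearest to the summit, against 78.9%. The 13 unshared peaks include those of eef-1A.2, eef-1B.2, eif-3.C, eif-3.B and ife-2. In worms, genes close behind another on the same strand are often transcribed together as an operon from an upstream promoter. A same-strand neighbour overlapped the 5' end or ended within 500 bp upstream of it at 4 of the 9 unbound genes (ife-1, ife-5, eif-3.F and eif-2alpha) and at 4 of the 31 bound ones (eef-1B.2, eif-2Bgamma, eif-3.C and eif-2gamma), against 20.6% of all genes. Put the other way, 4 of the 8 genes with such a neighbour were bound and 27 of the 32 others, where over all genes the shares were 18.1% and 25.5%. The eif-2alpha gene lies 132 bp behind phb-1, a prohibitin gene named here after its value was seen, whose own window held a peak of 233. Whether these pairs are operons was not tested.

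Most of the summit windows held no FoxA core. Within 50 bp of the summit a FoxA core was present at 7 of the 31 genes, or 22.6%, against 25.3% of the 4311 promoter peaks and 6.31% of windows of the same length 500 bp to either side. Within 100 bp the order was the other way, with 41.9% of these genes against 34.2% of promoter peaks. At 50 bp the genes were eef-1B.1, eif-3.B, eif-3.I, eif-3.J, eif-6, eif-1 and eif-2A. In 6 of them the core was TGTTTGC, found at 9.88% of promoter peaks, and eif-1 had TATTTAC, found at 5.73%, while TGTTTAC, found at 7.59%, and TATTTGC, found at 4.11%, were in none of the 31 windows. The GA repeat was present at eef-1A.2 and ife-4, or 6.45%, against 9.65% of promoter peaks. Among the 11 genes above the ninth decile of height, 2 had a FoxA core (eef-1B.1 and eif-3.B), against 24% of the 333 promoter peaks above that height. The windows of iff-2, eef-1A.1 and ifet-1 printed above therefore have no capitals. Matches are to letters only, and an absent match says only that these letters are not in the window.

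The sequence of the windows was also counted for base composition and uniqueness. The median G and C content of the 101-base windows was 47.5%, in a range from 30.7% at eif-3.B to 59.4% at iff-2, against 41.6% over promoter peaks. None of the 31 windows held a 30-base string that occurs elsewhere in the genome, so the sequence at these summits is unique at that length.

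Other genes of translation, whose names do not begin with these prefixes, were looked at from a list of 34. That list was chosen with earlier results of these data known, so its share is a description and no independent support. Of these, 30 matched the annotation and 19 were bound, or 63.3% (95% Wilson interval 45.5 to 78.1), against 24.0% of all protein-coding genes. Their median height was 129, against 104 over all bound genes. The highest were drr-2, an eIF4H-like initiation gene, at 397, tufm-2, named for the mitochondrial elongation factor Tu, at 185, the ABC protein gene abcf-2 at 176, the poly(A)-binding protein gene pab-1 at 164, abcf-1 at 147 and abcf-3 at 144. All 6 peaks also lay in the window of another gene: set-16 for drr-2, exoc-7 for tufm-2, T27E9.2 and ant-1.1 for abcf-2, rpl-30 for pab-1, scc-3 for abcf-1 and F42A10.5 for abcf-3. The summits of the tufm-2, abcf-2 and abcf-1 peaks were nearest to exoc-7, ant-1.1 and scc-3. The genes for the enzymes that modify eIF5A with hypusine, dhps-1 and dohh-1, were not bound. Nor were those for the diphthamide of eEF2, dph-1 and dph-2. They were picked from the 11 unbound related genes after their values were seen. Of all 19973 protein-coding genes 15177 were not bound either. The efk-1 gene, for the kinase that inhibits eEF2, was bound at 88.0. Cytosolic ribosomal protein genes stood higher on both measures, with 42 of 47 large-subunit genes bound at a median of 253 and 29 of 31 small-subunit genes at a median of 236. The elongation genes, with a median of 344 over 8, were above both of these medians and the initiation genes, with 133, below them, values set side by side with no test of the difference.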

How the data were processed

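PHA-4 ChIP-seq peak lists of 1 group with 2 biological replicates were used, on build ce11. Per the deposited manifests, each replicate list of 30000 regions was called on that replicate's alignment with a control file common to both, and the optimal list of 7847 peaks came from the pooled and both replicate lists through an irreproducible discovery rate step. No header, label or manifest used here names the aligner, the peak caller or the threshold. The deposited signal (peak height) has no stated scale and ran from 41.4 to 862 in the optimal list. The deposited q-value, as −log10, was at its ceiling of 4.15 for the highest peak of all 31 bound genes and ranked nothing. Read depth is unknown, so intervals cover counting of genes or peaks only.

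Summits were placed on Ensembl release 115 gene models of WBcel235, the assembly named ce11, and on RefSeq sequence of the same assembly. A promoter window ran from 1000 bp before to 200 bp after any annotated 5' end. The highest peak in it gave a gene's height. A replicate region belonged to an optimal peak if their summits lay within 200 bp. Window assignment was checked on simulated peaks. No test was run, because the series has 1 group. Alternatives covered the window, assignment, peak threshold, annotation, single replicates and motif window. Every one of the 40 genes could be named. Related genes were named for the 6 highest peaks or for their role, and the role-based names (dhps-1, dohh-1, dph-1, dph-2, efk-1) were picked after their values were seen. The genes, lists and roles were chosen with earlier results of these data known. Analyses used Python 3.11.15, NumPy 2.4.6, SciPy 1.17.1, pandas 2.3.3, statsmodels 0.14.6 and Matplotlib 3.10.9.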

Additional observations from a re-analysis of the deposited data

How the results depend on the processing

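With each summit left to the closest 5' end alone, up to 2000 bp away, bound genes fell from 31 to 21 and initiation genes from 23 to 15, and the ratio of median heights (bound translation factor genes over all bound genes) rose from 1.43 to 1.78; that rule leaves a shared peak to 1 gene. The ratio was 1.21 among the 3923 highest peaks and, with either replicate left out, 1.22 to 1.5. Without replicate 1 the count was 30 (24% of all genes), losing eif-3.D, and without replicate 2 it was 34 (24.6%), gaining eif-4A3, eif-3.G and eif-1.A. In both replicates 23 genes had one of the 3923 highest regions, where 12.1% of all protein-coding genes did. With the 7847 highest regions the count was 30, where 20.7% of all protein-coding genes had one. FoxA cores were found at 13 genes within 100 bp, or 41.9% against 34.2% of promoter peaks, so that the direction of the 50 bp comparison turned, and at 4 within 25 bp, or 12.9% against 14.8%. The GA repeat was at 0 within 25 bp, against 5.08%; wider and narrower windows hold more and fewer letters by construction. Whole regions in place of summits gave 32 bound genes, adding ife-5 (25.2% of all genes). A window of 500 bp upstream and 100 bp downstream gave 27 (19.5%), without ifet-1, ifg-1, eif-2Bgamma and eif-3.J, and one reaching 2000 bp upstream gave 35 (29.4%). No paired analysis was possible because the series has 1 group, so replicate numbers pair nothing. Limits are the unknown depth, the shared control file and 2 replicates, whose SD is itself imprecise.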

Other observations

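The 2 eEF1B genes, on chromosomes III and IV, had an 11-base string in common in their summit windows, AAGGCGCATGG, in the same orientation to the gene. It was the longest string shared by any 2 of the 21 windows for which strings were compared, together with 2 A- and T-rich strings of the same length, and was picked after the windows were seen. The windows on chromosome I, those of eef-2 and eif-3.C among them, were not compared. At eef-1B.1 the string lay just past the 5' end, in the exon, whereas at eef-1B.2 the string lay upstream of the gene. Of 3595 promoter windows compared 4 held it, or 0.111%, and the others stood at phb-2, a prohibitin gene, and between pqn-87 and rsr-2. No test was made of it.

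By chromosome, 10 of 12 translation factor genes were bound on I, 8 of 12 on II, 6 of 7 on III, 1 of 2 on IV, 3 of 4 on V and 3 of 3 on X. Over all chromosomes 24.0% of protein-coding genes were bound. That share was not computed for each chromosome, so no difference between chromosomes is read from these small counts. The unbound genes on II were ife-5, eif-3.F, eif-3.G and eif-3.L. The intron of eif-3.F held a peak of 57.1 at 1807 bp from its 5' end, outside the promoter window.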
